A study of Mus musculus with 2 samples.

Results

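Adarb2 interneurons are inhibitory neurons of the forebrain that carry *Adarb2*, which encodes an RNA-binding relative of the RNA-editing enzymes ADAR and ADARB1. Here they were taken as the nuclei of the mouse hippocampus that passed a limit on depth, held UMIs of the GABA-synthesizing enzymes *Gad1* and *Gad2* and reached a minimum of *Adarb2*. A UMI, or unique molecular identifier, is the tag that marks 1 captured RNA molecule. A barcode, the tag of 1 droplet, passed with at least 3000 UMIs and at most 5% mitochondrial UMIs. A nucleus was GABAergic where *Gad1* and *Gad2* together held at least 5 UMIs, at least 3 per 10000, and more than the vesicular glutamate transporters *Slc17a7* and *Slc17a6*. GABAergic nuclei with at least 20 *Adarb2* UMIs per 10000 were kept, 304 of the 16843 passing barcodes, 141 of 8164 in PS19 and 163 of 8679 in PZKO.

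PS19 (PS19+/- Zbp1+/+) mice carry a Tau P301S transgene, a human tau with a disease mutation driven by the prion protein promoter, and PZKO (PS19+/- Zbp1-/-) littermates carry the same transgene and lack *Zbp1*, which encodes an innate immune sensor of Z-form nucleic acid. Both groups therefore carry the transgene, and mice without it are not analysed here. For each genotype, the hippocampi of 9-month-old males went into 1 pooled library, and RNA of the isolated nuclei was counted with the 10x Genomics Chromium 3′ kit. No library was repeated within a genotype, so no test was made, and intervals (95%) cover counting error only and UMIs made by PCR from the same molecule are taken as 1.

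In the embryo, forebrain interneurons arise mainly in the medial and the caudal ganglionic eminences. Medial cells carry *Lhx6* and *Sox6* and give rise to the *Pvalb* and *Sst* interneurons. Caudal cells carry *Prox1*, *Nr2f2* and *Npas1*, and in the hippocampus they include cells that release vasoactive intestinal peptide (*Vip*) and mostly contact other interneurons, cholecystokinin (*Cck*) basket cells that respond to cannabinoids through *Cnr1*, and *Lamp5* neurogliaform cells that release GABA diffusely, some of which are of medial origin.

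The selected nuclei were deeply counted. The 141 PS19 nuclei held 2785361 UMIs with a median of 18843 per nucleus (3841 to 44882), and the 163 PZKO nuclei held 4555232 UMIs with a median of 25183 (7691 to 74828), 1.34 times the PS19 median. The median mitochondrial share was 0.326% in PS19 and 0.233% in PZKO, and 31 PS19 nuclei (21.99%) and 13 PZKO nuclei (7.98%) were above 1%. The libraries shared 47 barcodes, of which 0 were among the selected nuclei. They made up 30.7% of the GABAergic nuclei in PS19 (141 of 459, exact binomial interval 26.5 to 35.2%) and 29.96% in PZKO (163 of 544, 26.1 to 34.0%), so that the intervals of the shares overlapped. *Lhx6* nuclei with under 20 *Adarb2* UMIs per 10000 that did not pass an *Sst* minimum (3 UMIs and 10 per 10000) are used below as interneurons to compare with. They made up 16.1% of GABAergic nuclei in PS19 (74 of 459, 12.9 to 19.8%) and 27.4% in PZKO (149 of 544, 23.7 to 31.3%). Of these, 37 of 74 and 79 of 149 held at least 1 *Sst* UMI. A further 237 GABAergic nuclei in PS19 and 231 in PZKO passed none of the *Adarb2*, *Sst* and *Lhx6* minima. They were not used as a comparison.

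*Zbp1* (chr2:173206612-173218923, minus strand, mm10) was too low in these nuclei to check the genotype. It held 1 UMI in PS19 and 0 UMIs in PZKO, where the limit is 3 counts. Over all deposited barcodes it held 116 of 116488513 UMIs, in 100 PS19 barcodes, and 53 of 171167884 UMIs, in 48 PZKO barcodes, a log2 ratio of PZKO over PS19 of −1.69 (−2.18 to −1.20), so the library labelled PZKO was lower but not at 0. Whether the deleted part of the gene reaches the 3′ end that these libraries count was not tested.

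*Adarb2* (chr13:8202866-8768747, plus strand) chose the nuclei, and its level is a description. Its median per nucleus was 98.9 UMIs per 10000 in PS19 (20.7 to 363) and 96.9 in PZKO (20.2 to 395), and the rest of the GABAergic nuclei had a median of 0 with highest values of 19.7 and 17.96. Just inside the minimum, from 20 to 30 per 10000, lay 10 PS19 nuclei with a median of 23.3 and 13 PZKO nuclei with a median of 25.99. Just outside it, from 10 to 20 per 10000, lay 19 PS19 nuclei with a median of 15.4 and 15 PZKO nuclei with a median of 12.97.

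Transcription factors and other genes that mark the caudal eminence were not used in the choice, and they separated these nuclei from the *Lhx6* nuclei in both libraries. The *Adarb2* nuclei held *Prox1*, a homeobox factor, at 1.15 UMIs per 10000 in PS19 and 1.502 in PZKO, against 0.168 in the *Lhx6* nuclei of each library. *Npas1*, a helix-loop-helix factor, was at 1.13 and 0.865 against 0.208 and 0.241. *Htr3a*, a subunit of the serotonin-gated ion channel, was at 0.294 and 0.252 against 0 and 0.00357. Each of these genes was higher in the *Adarb2* nuclei of both libraries, as were *Nr2f2*, a nuclear receptor (0.736 and 0.610 against 0.188 and 0.123), and *Sp8*, a zinc finger factor (0.108 and 0.0681 against 0 and 0).

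Medial genes went the other way. *Lhx6*, the factor that directs medial fates, was at 0.0574 and 0.0395 UMIs per 10000 in the *Adarb2* nuclei, where 6 of 141 and 8 of 163 nuclei held a UMI. *Sox6* was at 0.208 and 0.522 against 4.90 and 5.98 in the *Lhx6* nuclei, and *Satb1* at 0.442 and 0.334 against 2.27 and 2.93. *Nxph1*, a secreted ligand of neurexins, was the exception among them, since it was lower but still at 6.46 and 10.2 against 26.8 and 27.2. GABAergic genes that the rule did not use were present in both kinds of interneuron. *Erbb4*, the neuregulin receptor of interneurons, was at 69.6 and 74.0 against 64.6 and 75.6, while the noncoding RNA *Dlx6os1* was at 10.2 and 9.18 against 3.12 and 2.71. *Prox1* alone does not mark caudal cells here, because it held a UMI in 59.6% and 72.4% of the *Adarb2* nuclei but also in 54.8% and 64.2% of the oligodendrocyte-like nuclei.

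Relative to the *Lhx6* nuclei, the label of caudal origin therefore held for the nuclei as a whole but not for all of them. Within the *Adarb2* nuclei the summed medial list, led by *Nxph1*, was above the caudal list. It stood at 7.27 against 3.42 UMIs per 10000 in PS19 and at 11.3 against 3.30 in PZKO. Clustering of the 304 nuclei on 1000 variable genes gave 12 clusters. A marker counted for a cluster where it held at least 5 UMIs and was at least 2-fold above the median of the other clusters. Clusters were called Vip-like, Cck-like or Lamp5-like where at least 3 markers of 1 list counted, more than of any other list. The gene that names the class also had to reach its level over all 304 nuclei. Among the leading genes of the cluster, no other list could have more markers than that of the class. These conditions were chosen with the clusters in view, and the genes that define a cluster are a description. In cluster 2, a Lamp5-like cluster of 9 PS19 and 9 PZKO nuclei led by *Mctp2* and *Eya4*, the summed medial list stood at 25.4 and 37.1 UMIs per 10000, with *Nxph1* as its most abundant gene at 24.1 and 35.8. There the caudal list stood at 0.596 and 0.452, and *Sp8* and *Htr3a* were at 0 in both libraries. *Lhx6* was at 0.954 and 0.633 and *Nkx2-1*, a medial factor, at 0.298 and 0.181, so *Lhx6* and *Nkx2-1* in cluster 2 went against a caudal origin. Not all genes of the medial list did so. *Satb1* and *Tac1* were at 0 in both libraries, and *Sox6* and *Sst* were at 0 in PS19. The caudal factor *Prox1* was at 0.417 and 0.452. The medial sum was not particular to cluster 2. It was 26.7 and 36.0 in cluster 7, 17.7 and 24.7 in cluster 12 and 8.96 and 15.02 in cluster 1, led by *Nxph1* and above the caudal list in each, but *Lhx6* and *Nkx2-1* were at 0 in clusters 7 and 12 of both libraries. *Vcan*, on the list of oligodendrocyte precursors, was also among the leading genes of cluster 2, while the other precursor genes *Pdgfra*, *Cspg4* and *Olig1* were at 0.

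**Figure D1:**
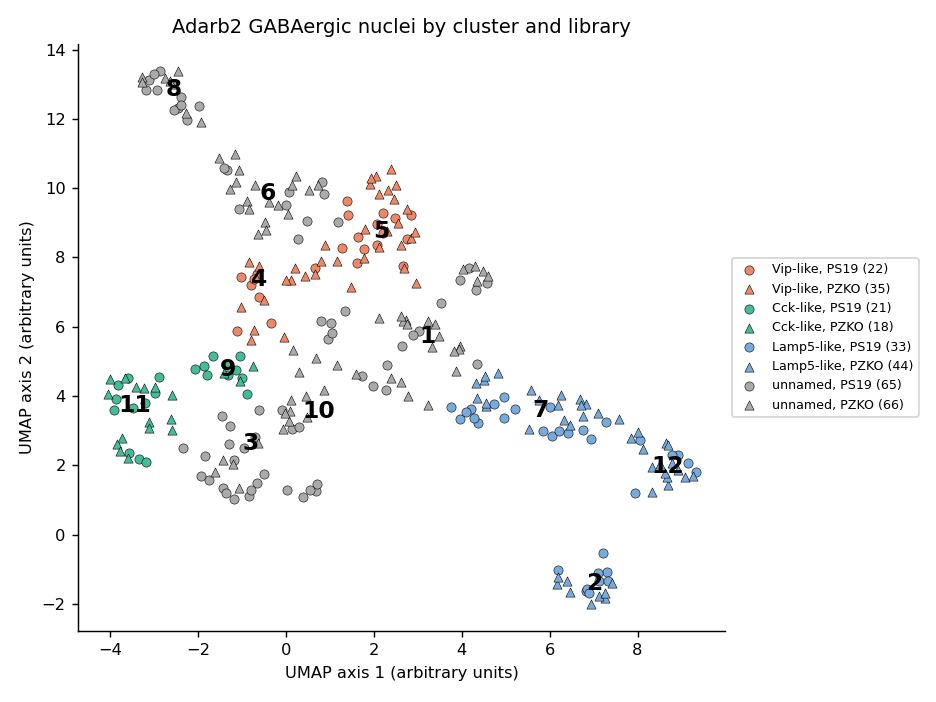
A map of the 304 nuclei by UMAP (both axes in arbitrary units), coloured by cluster class, with circles for PS19 and triangles for PZKO and clusters numbered 1 to 12. Nuclei of both libraries lie in 11 of the clusters, and the 10 nuclei of cluster 10 are from PS19 alone.

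Vip-like nuclei formed clusters 4 and 5 (22 nuclei in PS19 and 35 in PZKO), with 15.6% (10.0 to 22.7%) and 21.5% (15.4 to 28.6%) of the nuclei. Cluster 4 was led by *Tac2* and *Crh*, which encode neurokinin B and corticotropin-releasing hormone, and cluster 5 by *Cp*, ceruloplasmin, and *Npy2r*, a receptor of neuropeptide Y. *Crh* was at 3.03 and 0.947 UMIs per 10000 in cluster 4 and at 0.129 and 0.336 in cluster 5, whereas *Penk*, proenkephalin, was at 0.587 and 0.535 in cluster 4 and at 2.06 and 0.566 in cluster 5. Both clusters carried *Vip*, at 21.0 and 12.3 UMIs per 10000 in cluster 4 and at 11.99 and 7.27 in cluster 5. *Kit*, a receptor tyrosine kinase, was at 5.09 and 4.49 in cluster 4.

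Cck-like nuclei formed clusters 9 and 11 (21 in PS19 and 18 in PZKO), with 14.9% (9.46 to 21.9%) and 11.0% (6.68 to 16.9%). Of the 4 classes they had the highest *Cnr1*, the cannabinoid receptor, at 21.5 UMIs per 10000 in PS19 and 17.8 in PZKO, against 3.31 and 1.32 in the Lamp5-like nuclei. *Adarb2* was also high in them, at 172 and 216, against 54.48 and 60.002 in the Lamp5-like nuclei. *Slc17a8*, the vesicular glutamate transporter VGLUT3 of a group of *Cck* cells, was at 1.78 and 0.920 UMIs per 10000 in them, with 108 of its 143 UMIs in PS19 and 71 of its 73 in PZKO. *Krt73*, a keratin, was at 0.263 and 0.661. *Cck* itself was at 1.43 and 1.27 UMIs per 10000. Cluster 9 held 10 PS19 and 3 PZKO nuclei, and *Slc17a8* held 59 UMIs there in PS19 and 0 in PZKO.

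Lamp5-like nuclei formed clusters 2, 7 and 12 (33 in PS19 and 44 in PZKO), with 23.4% (16.7 to 31.3%) and 27.0% (20.3 to 34.5%). *Lamp5*, which encodes a lysosome-associated membrane protein, was at 1.55 and 1.63 UMIs per 10000, and *Sv2c*, a synaptic vesicle protein, was 52.1-fold and 25.1-fold above the other nuclei. The clusters differed in their products. *Reln*, the secreted protein reelin, was at 30.9 and 44.4 UMIs per 10000 in cluster 7, and *Ndnf*, a secreted factor of neurogliaform cells, at 8.16 and 6.05 there against 0.164 and 0.361 in cluster 12. *Npy*, neuropeptide Y, was highest in cluster 12, at 12.3 in PS19 and 2.82 in PZKO. *Npas1* was at 0.0334 and 0 in the Lamp5-like nuclei against 2.20 and 1.70 in the Cck-like nuclei. The 3 classes are not compared in size between the genotypes, since genes that define them differed between the libraries.

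**Figure D2:**
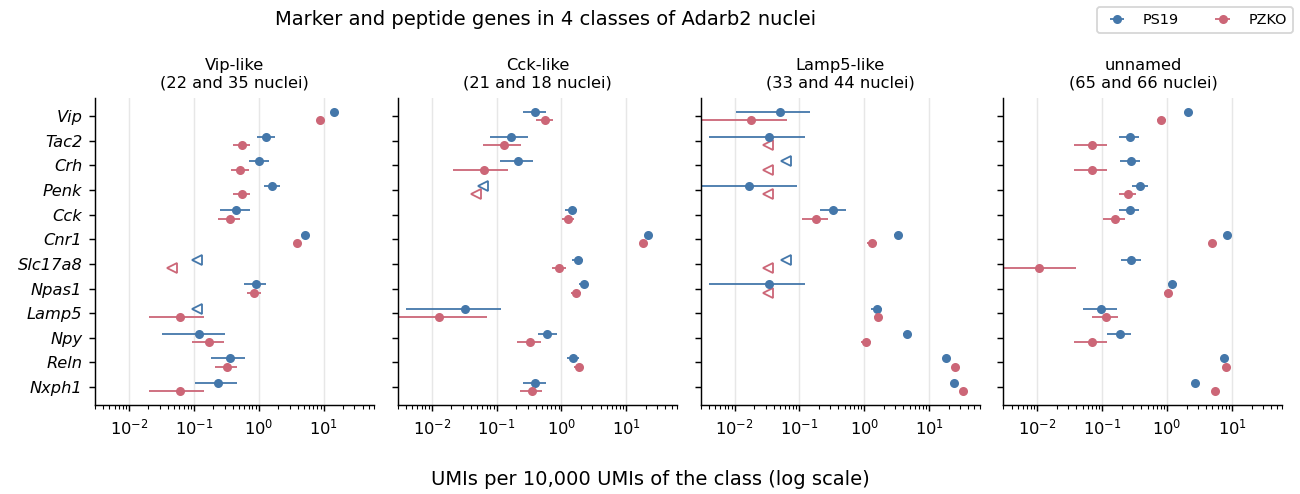
Level of 12 marker and peptide genes (UMIs per 10000 UMIs of the class, log axis) in Vip-like, Cck-like, Lamp5-like and unnamed nuclei of PS19 and PZKO. Points are UMI sums with exact Poisson 95% intervals. Where a library held 0 UMIs, open triangles stand at the upper end of that interval. *Npy* in the Lamp5-like panel is at 4.51 in PS19 and 1.08 in PZKO.

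The 5 unnamed clusters held 65 PS19 nuclei (46.1%) and 66 PZKO nuclei (40.5%). Cluster 6 (10 and 18 nuclei) was led by *Acpp* and *Qrfpr*, and 14 of its 28 nuclei were of the Vip kind defined below. There *Nos1*, neuronal nitric oxide synthase, was at 1.26 and 1.42 UMIs per 10000. Cluster 3 (21 and 14) was led by *Col5a2* and *Pde3a* and cluster 8 (11 and 8) by *Stac*. Cluster 1 (13 and 26) was led by *Ranbp3l*, *Otx2os1* and *Gata3*, and it held the astrocyte list at 9.48 and 11.0 UMIs per 10000, the oligodendrocyte list at 2.36 and 7.38 and the precursor list at 1.67 and 4.10. Cluster 10 (10 and 0) was led by *Meis2* and *Pbx3*, with *Meis2*, a homeobox factor, at 12.2 UMIs per 10000, *Vip* at 12.7 and the oligodendrocyte list at 28.5, at a median of 9620.5 UMIs per nucleus. A cluster of 1 library may reflect that library, and the part of RNA from other cells in clusters 1 and 10 was not tested.

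Single nuclei were also sorted by their own *Vip*, *Lamp5* and *Cck* UMIs. The Vip kind (at least 2 *Vip* UMIs and 3 per 10000) held 34 of 141 nuclei in PS19 (24.1%, 17.3 to 32.0%) and 39 of 163 in PZKO (23.9%, 17.6 to 31.2%). The same minimum was passed by 0.371% and 0.462% of oligodendrocyte-like nuclei, which should lack the gene and had medians of 4317 and 5140.5 UMIs, and by 0 of 74 and 0 of 149 *Lhx6* nuclei, which allows up to 4.05% in PS19. Thinned to 3000 UMIs each, 28.4% and 23.9% of the *Adarb2* nuclei held a *Vip* UMI (33.3% and 34.4% unthinned), against 3.15% and 2.89% of the oligodendrocyte-like nuclei. Within the Vip kind the median was 11.6 *Vip* UMIs per 10000 in PS19 and 8.62 in PZKO, and the highest nuclei reached 49.6 and 41.5.

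The Lamp5 kind (at least 2 *Lamp5* UMIs and 3 per 10000) held 5 of 141 nuclei in PS19 (3.55%) and 3 of 163 in PZKO (1.84%), and 0 nuclei passed the minimum for both *Vip* and *Lamp5*. The *Lhx6* nuclei passed the *Lamp5* minimum in similar shares, 3 of 74 in PS19 (4.05%) and 2 of 149 in PZKO (1.34%). After thinning, a *Lamp5* UMI was present in 11.3% and 6.75% of the *Adarb2* nuclei and in 9.46% and 6.04% of the *Lhx6* nuclei, so *Lamp5* UMIs in a single nucleus did not set the *Adarb2* nuclei apart from them, although 77 nuclei were Lamp5-like by cluster. The Cck kind (at least 2 *Cck* UMIs and 10 per 10000) held 0 nuclei, which allows up to 2.13% in PS19, as the highest nuclei reached 6.77 per 10000 in PS19 and 3.996 in PZKO. After thinning, a *Cck* UMI was present in 7.80% and 9.20% of the *Adarb2* nuclei and in 10.4% and 9.60% of the oligodendrocyte-like nuclei, so presence of *Cck* in a nucleus was not above that background. In the *Lhx6* nuclei it was present in 6.76% (2.23 to 15.1%) and 2.68% (0.736 to 6.73%). The remaining 102 and 121 nuclei were of none of these kinds.

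The genotypes were then compared over all *Adarb2* nuclei to ask how they differed where *Zbp1* was removed from PS19 mice. UMIs were summed per library, 12927 genes held at least 20 UMIs, and a gene is called higher or lower where it differed at least 1.5-fold with its counting interval on that side of 0. In PZKO, 498 genes (3.85%) were higher and 571 (4.42%) were lower, and the median log2 ratio of PZKO over PS19 was −0.01. In the *Lhx6* nuclei 2.33% of 12683 genes were higher and 6.9% lower, and in the excitatory nuclei 3.09% of 17829 were higher and 5.51% lower.

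Of the 9 neuropeptide genes with at least 20 UMIs, 6 were called lower in PZKO, beside 4.42% of all genes, and 0 were called higher. Among the 6, *Adcyap1* reached 20 UMIs only through PS19, where it was high, so its call is a description and not support. The summed level of the 14 listed peptide genes was 6.12 UMIs per 10000 in PS19 and 3.60 in PZKO (log2 −0.77, −0.87 to −0.67). *Npy* held 334 UMIs in PS19 and 171 in PZKO, 1.20 and 0.375 per 10000, a log2 ratio of −1.68 (−1.95 to −1.41). *Tac2* held 89 and 68 UMIs (−1.10, −1.58 to −0.63) and *Crh* 81 and 60 (−1.14, −1.65 to −0.64). Each was carried by few nuclei. The 5 nuclei highest in *Npy* held 74.0% of its PS19 UMIs and 33.3% of its PZKO UMIs, and a single PS19 nucleus held 32.9%, while *Npy* was detected in 29.1% and 32.5% of nuclei. Among nuclei with at most 1% mitochondrial UMIs *Npy* had a ratio of −0.30 and was no longer called, and without cluster 10 *Tac2* had one of −0.57 and was no longer called.

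*Penk* (103 and 91 UMIs, −0.89, −1.31 to −0.47) and *Pnoc*, the precursor of nociceptin (108 and 114, −0.63, −1.02 to −0.24), were also called lower. *Pnoc* was no longer called with at most 1% mitochondrial UMIs (−0.39). *Adcyap1*, the precursor of PACAP, held 21 and 6 UMIs, and 85.7% of the PS19 UMIs were in 1 nucleus. *Vip* held 784 UMIs in PS19 and 909 in PZKO, 2.81 and 1.996 per 10000, a log2 ratio of −0.50 (−0.64 to −0.36) that did not reach 1.5-fold, and *Cck* held 155 and 176 (−0.53, −0.85 to −0.21). *Sst*, at 15 and 31 UMIs, had a ratio of 0.34 (−0.60 to 1.33).

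Other neurons are given beside these values. Over the 9 genes the median log2 ratio was −0.89 in the *Adarb2* nuclei, −0.15 in the excitatory nuclei and, over 4 genes, −0.46 in the *Lhx6* nuclei, with 8 of 9 below 0 in the *Adarb2* nuclei beside 51.3% of all genes. Under the alternatives that could be computed the median in the *Adarb2* nuclei ran from −0.63, at most 1% mitochondrial UMIs, to −1.2, with equal weights of the 4 classes of clusters. Peptide genes are short, and short genes stood lower in PZKO as a whole. The 5687 genes of the same span of lengths (1.39 to 24.8 kb) had a median of −0.14, and 7.21% of them were called lower.

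**Figure D3:**
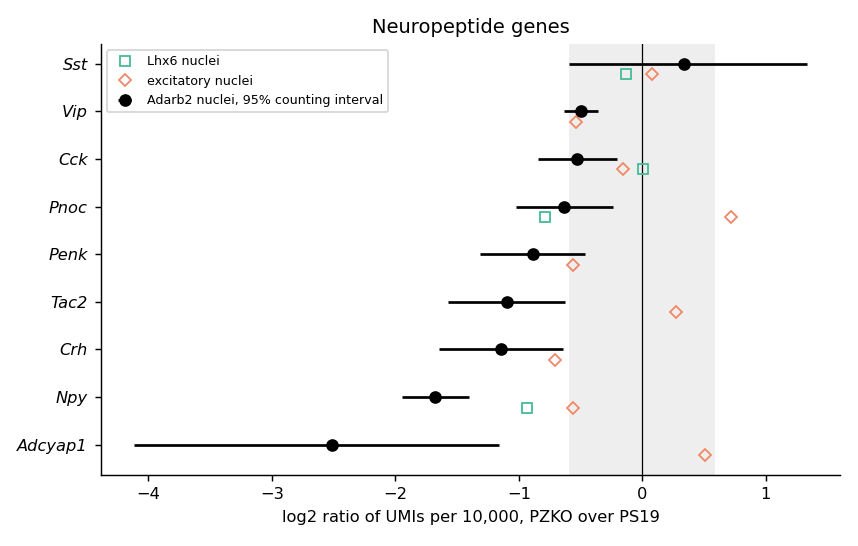
Log2 ratio of UMIs per 10000, PZKO over PS19, for the 9 neuropeptide genes with at least 20 UMIs. Black points are the *Adarb2* nuclei with 95% counting intervals, open squares the *Lhx6* nuclei and open diamonds the excitatory nuclei, and the grey band marks less than 1.5-fold; 8 of the 9 black points lie below 0, from −0.50 for *Vip* to −2.52 for *Adcyap1*.

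As several of these peptide genes were lower together, the 250 bases before the start of each were searched for TGACG and its reverse complement CGTCA, the core of the cAMP response element that is bound by CREB, on both strands. RefSeq promoters (GRCm38.p6) were at hand for 11 of the 14 genes, in 13 windows, and not for *Penk*, *Crh* and *Pnoc*. The core was present in 9 of the 13 windows (69.2%), of 8 genes, and in 17.8% of all 32851 windows of that length. Of the 8 genes, *Tac1*, *Cort*, *Nts* and *Cartpt* held too few UMIs to be measured. *Vip*, *Cck* and *Sst* were not called, and only *Adcyap1* was called lower. The share of windows thus describes the listed peptide genes and not those that were lower. The palindrome TGACGTCA, which holds the core on both strands, was present in 2 of the 13 (*Sst* and *Cartpt*) and in 1.55% of all windows. The windows of *Vip* (chr10:5638968-5639217, plus strand), *Cck* (chr9:121495695-121495944, minus strand), *Npy* (chr6:49822460-49822709, plus strand) and *Tac2* (chr10:127724228-127724477, plus strand) are shown because these genes mark the kinds or were lower in PZKO, with the core in capitals.
Vip: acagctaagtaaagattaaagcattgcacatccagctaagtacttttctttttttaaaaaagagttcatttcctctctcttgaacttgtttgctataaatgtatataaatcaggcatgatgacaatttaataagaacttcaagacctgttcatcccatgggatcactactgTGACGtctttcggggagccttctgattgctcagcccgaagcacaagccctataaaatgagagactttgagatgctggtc
Cck: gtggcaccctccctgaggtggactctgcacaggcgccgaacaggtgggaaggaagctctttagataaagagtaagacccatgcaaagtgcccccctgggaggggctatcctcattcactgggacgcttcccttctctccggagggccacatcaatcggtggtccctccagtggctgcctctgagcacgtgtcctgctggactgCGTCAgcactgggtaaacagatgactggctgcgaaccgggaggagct
Npy: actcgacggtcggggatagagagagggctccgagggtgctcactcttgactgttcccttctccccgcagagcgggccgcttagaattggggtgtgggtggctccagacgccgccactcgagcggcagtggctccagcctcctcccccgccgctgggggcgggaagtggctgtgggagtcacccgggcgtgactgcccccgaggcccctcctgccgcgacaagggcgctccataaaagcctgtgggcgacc
Tac2: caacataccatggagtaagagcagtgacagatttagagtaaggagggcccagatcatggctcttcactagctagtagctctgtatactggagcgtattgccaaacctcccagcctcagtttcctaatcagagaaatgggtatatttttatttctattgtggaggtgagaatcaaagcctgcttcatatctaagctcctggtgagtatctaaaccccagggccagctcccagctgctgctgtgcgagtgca
The first base of the core lay 79 bases before the start in *Vip* and 47 bases before it in *Cck*. The windows of *Npy* and *Tac2*, both called lower, did not hold these letters. *Adcyap1*, also called lower, has 2 overlapping windows that held the same match, with its first base 91 and 242 bases before the start. This 1 site therefore counts as 2 of the 9 windows with the core. A match is a description of the sequence.

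Markers of the Cck-like nuclei were also compared, and 3 of 5 were called lower in PZKO, beside 4.42% of all genes, and 1 higher, beside 3.85%. *Cnr1* held 2714 UMIs in PS19 and 2753 in PZKO, 9.74 and 6.04 per 10000 (−0.69, −0.77 to −0.61), and its ratio was 0.03 in the *Lhx6* nuclei and 0.04 in the excitatory nuclei. Its median per nucleus was 6.05 UMIs per 10000 in PS19 and 2.86 in PZKO. *Slc17a8* held 143 and 73 UMIs (−1.68, −2.11 to −1.26), the chemokine gene *Cxcl14* 215 and 222 (−0.66, −0.94 to −0.39), and *Krt73* 16 and 51 (0.96, 0.13 to 1.87). *Cnr1* was no longer called with at most 1% mitochondrial UMIs (−0.50) or with equal weights of the classes (−0.45), and turned to 0.096 in thinned counts. *Cxcl14* was no longer called with at most 1% mitochondrial UMIs (−0.40) or without the highest Scrublet doublet scores (−0.57). *Slc17a8* and *Krt73* were present in 7.09% and 5.52%, and 4.26% and 5.52%, of the nuclei.

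Of 9 markers of the Lamp5-like nuclei 2 were called higher, beside 3.85% of all genes, and 2 lower, beside 4.42%. *Nos1* (63 and 184 UMIs, 0.84, 0.42 to 1.27) and *Sv2c* (183 and 489, 0.71, 0.46 to 0.96) were higher, and *Id2*, an inhibitor of helix-loop-helix factors (168 and 138, −0.99, −1.33 to −0.66), and *Npy* were lower. *Nos1* was no longer called with an *Adarb2* minimum of 10 (0.41) or 30 (0.55) per 10000. *Sv2c* was no longer called with a minimum of 10 (0.47) or equal weights of the classes (0.51), and turned to −0.021 in thinned counts. *Lamp5* (107 and 207 UMIs) had a ratio of 0.24 (−0.10 to 0.59), *Reln* 0.34 (0.27 to 0.42), *Ndnf* −0.45 (−0.62 to −0.27), *Kit* 0.12 (−0.04 to 0.29) and *Gabrd*, a subunit of extrasynaptic GABA receptors, −0.22 (−0.90 to 0.48). Of the Vip list, which shares *Vip*, *Tac2*, *Crh* and *Penk* with the peptide genes, *Calb2*, calretinin, held 22 and 54 UMIs (0.59, −0.15 to 1.37).

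Genes of origin were then read. None of the 5 caudal genes was called, beside 3.85% of all genes called higher and 4.42% lower, and their ratios ran from −0.66 for *Sp8* (30 and 31 UMIs, −1.43 to 0.11) to 0.39 for *Prox1* (319 and 684, 0.20 to 0.59). Of the 5 medial genes measured, *Nxph1* (1800 and 4669 UMIs, 0.67, 0.59 to 0.74) and *Sox6* (58 and 238, 1.33, 0.91 to 1.77) were called higher, beside the same 3.85%. *Nxph1* was detected in 45.4% and 49.1% of nuclei and *Sox6* in 6.38% and 14.1%. *Nxph1* was no longer called with an *Adarb2* minimum of 10 per 10000 (0.39) or equal weights of the classes (0.50), and without cluster 1 *Sox6* turned to −0.98. None of the RNA-editing family was called. *Adar* held 318 and 549 UMIs (0.08, −0.12 to 0.28), *Adarb1* 428 and 658 (−0.09, −0.27 to 0.09), and *Adarb2*, which chose the nuclei, had a ratio of −0.02.

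Genes of GABA release and reception were mostly not called, and these counts stand beside 3.85% of all genes called higher and 4.42% called lower. Of 7 genes for making, packing and taking up GABA, *Gad1* and *Gad2* were used to choose the nuclei, so their ratios are a description. Called lower was 1 of the 7, *Slc32a1*, the vesicular GABA transporter, at 282 and 278 UMIs or 1.01 and 0.610 per 10000 (−0.73, −0.97 to −0.49). Its ratio was −0.54 in the *Lhx6* nuclei and −0.19 in the excitatory nuclei, and with at most 1% mitochondrial UMIs it was no longer called in the *Adarb2* nuclei (−0.52). Of 12 subunits of GABA-A receptors 0 were called, with a median of −0.03 and values from −0.35 (*Gabra2*) to 0.20 (*Gabrb2*). Of 14 ionotropic glutamate receptor genes 1 was higher, the kainate receptor *Grik3* (61 and 207 UMIs, 1.05, 0.63 to 1.49), and of 17 synaptic adhesion genes 1 was higher, *Kirrel3* (2113 and 5386, 0.64, 0.57 to 0.71). With means over nuclei *Grik3* (0.44) and *Kirrel3* (0.38) were no longer called, and *Kirrel3* also not with an *Adarb2* minimum of 10 per 10000 (0.52), equal weights of the classes (0.55) or thinned counts (0.10). Of 15 receptors for peptides and amines, the muscarinic receptor *Chrm2* was higher (78 and 740, 2.54, 2.20 to 2.89) and *Cnr1* lower. Outside cluster 1 the ratio of *Chrm2* was 0.59 (0.09 to 1.11).

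**Figure D4:**
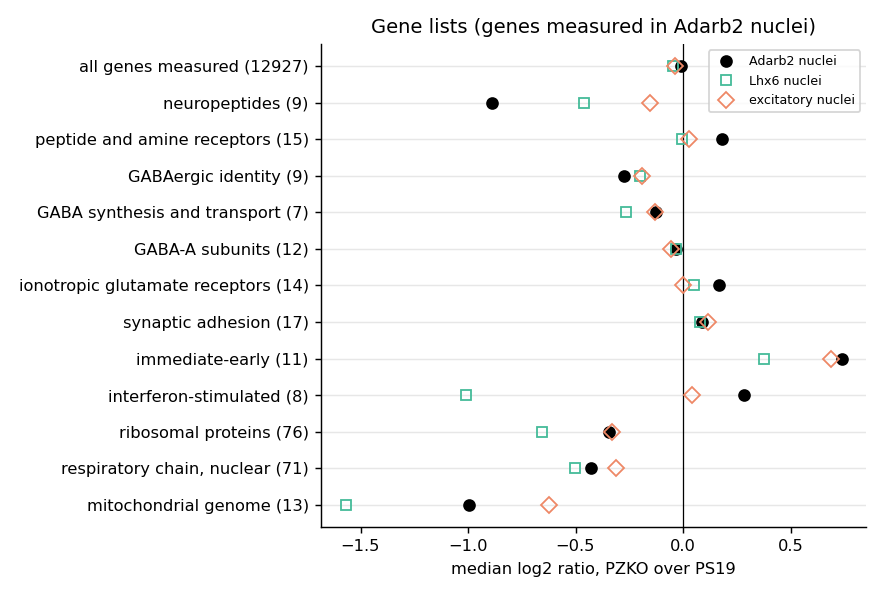
Median log2 ratio, PZKO over PS19, of each gene list in the *Adarb2* nuclei (black points) beside the *Lhx6* nuclei (open squares) and the excitatory nuclei (open diamonds), with all genes in the top row and the number of genes measured in parentheses. The neuropeptide list stands at −0.89 and the genes of the mitochondrial genome at −0.996, while GABA-A receptors stand at −0.03.

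Of the 11 measured genes that neuronal activity induces, 3 were called higher in PZKO, beside 3.85% of all genes, and 0 lower. *Egr1* held 18 UMIs in PS19 and 79 in PZKO (1.42, 0.67 to 2.25) and was detected in 8.51% and 21.5% of the nuclei. *Fos* held 17 and 55 UMIs (0.98, 0.18 to 1.86) and *Nr4a3* 30 and 83 (0.76, 0.14 to 1.41). The median of the list was 0.74, with 10 of 11 genes above 0 beside 48.7% of all genes, and it was 0.37 in the *Lhx6* nuclei and 0.69 in the excitatory nuclei. *Fos* was no longer called with at most 1% mitochondrial UMIs (0.84) or without the highest Scrublet scores (0.81). *Nr4a3* was no longer called in 4 alternatives, from 0.14 with equal weights of the classes to 0.58 with an *Adarb2* minimum of 30 per 10000. The counts behind these genes were small, and PZKO nuclei were deeper, which bears on the share of nuclei with a UMI.

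Genes of necroptosis and the interferon response held few UMIs. *Ripk1* held 43 and 68 UMIs (−0.05, −0.62 to 0.54) and *Irf3* 77 and 101 (−0.32, −0.76 to 0.13), *Mlkl* 2 and 2, *Casp8* 3 and 3 and *Fadd* 1 and 2, and *Ripk3* 0 in both libraries. Of 19 interferon-stimulated genes 8 were measured and 0 were called, beside 3.85% of all genes called higher and 4.42% lower, and their median was 0.28. The same 8 genes had a median of 0.04 in the excitatory nuclei, and 7 of them one of −1.01 in the *Lhx6* nuclei. The genes at 3 UMIs or fewer were too shallow to compare. *Mapt*, the mouse tau gene, held 973 and 1904 UMIs (0.26, 0.15 to 0.37), and *Prnp*, whose promoter drives the transgene, 499 and 576 (−0.50, −0.68 to −0.33), and neither was called.

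Genes that the study named in excitatory neurons of these same libraries were also read in the *Adarb2* nuclei. They were chosen on these samples, so their direction is not independent evidence. Of 20 genes named as higher in PZKO, 6 were called higher, beside 3.85% of all genes, and 0 lower, with a median of 0.27 against 0.58 in the excitatory nuclei. Of 14 named as lower, 5 were called lower, beside 4.42% of all genes and 8.25% of the 4633 genes of the same span of lengths, and 0 higher, with a median of −0.52 in the *Adarb2* nuclei, −0.64 in the excitatory, −1.06 in the *Lhx6* and −0.72 in the oligodendrocyte-like nuclei. Those called lower were *Cst3*, cystatin C (713 and 589 UMIs, −0.99, −1.15 to −0.83), the metallothioneins *Mt1* (−1.08) and *Mt3* (−0.79), *Cox8a*, a subunit of cytochrome c oxidase (−0.67), and *Pabpc1*, which binds poly(A) tails (−0.67). *Cox8a* was no longer called with at most 1% mitochondrial UMIs (−0.37), nor *Pabpc1* without cluster 1 (−0.55) or in thinned counts (−0.24).

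Genes of energy supply and translation followed. Of the 13 genes of the mitochondrial genome 12 were called lower, beside 4.42% of all genes, with a median of −0.996, and *mt-Nd4*, a subunit of complex I, held 1784 and 1433 UMIs (−1.03, −1.13 to −0.92). Of 71 nuclear genes of oxidative phosphorylation 17 were called lower and 0 higher (median −0.43, 62 below 0), and of 76 ribosomal protein genes 9 were lower and 0 higher (median −0.35, 72 below 0). Among all genes of the same span of lengths, 4.76% were called lower for the first of these lists and 6.58% for the second. The same lists had medians of −1.57, −0.50 and −0.66 in the *Lhx6* nuclei and of −0.62, −0.31 and −0.33 in the excitatory nuclei. The share of nuclei above 1% mitochondrial UMIs differed between the libraries as given above, and its part in these ratios was not tested. Among nuclei at or under 1%, a limit on the same genes, the mitochondrial list had a median of −0.10.

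Gene length moved with the ratio across all genes. In the *Adarb2* nuclei the median log2 ratio was −0.37 for the 259 genes under 2 kb and −0.19 from 5 to 10 kb. It was −0.01 from 20 to 50 kb and 0.16 from 200 to 500 kb. Of the shortest genes 17.4% were called lower and 1.54% higher. Of those of 200 to 500 kb 2.55% were called lower and 10.3% higher. The *Lhx6* nuclei (−0.43 under 2 kb, 0.10 from 200 to 500 kb) and the excitatory nuclei (−0.32 and 0.10) had medians in the same order. Nuclear depth differed 1.34-fold between the libraries, and the part of depth or RNA quality in this trend was not tested. Of nuclear long noncoding RNAs 0 of 7 were called, beside 3.85% of all genes called higher and 4.42% lower, with *Malat1* at −0.42 (−0.42 to −0.41).

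**Figure D5:**
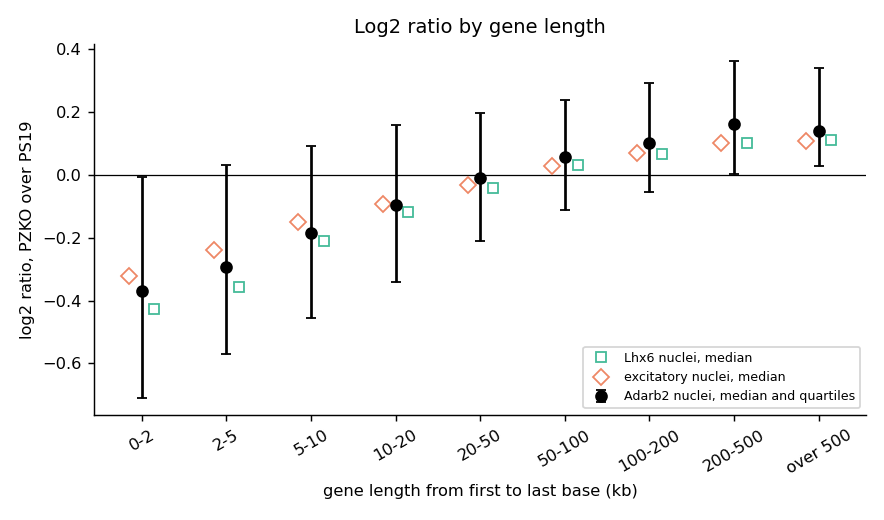
Log2 ratio, PZKO over PS19, by gene length from first to last base (kb). Black points and bars are the median and quartiles in the *Adarb2* nuclei, open squares the medians in *Lhx6* nuclei and open diamonds those in excitatory nuclei; the black median goes from −0.37 under 2 kb to 0.14 over 500 kb.

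Genes were ranked among those with at least 100 UMIs found in at least 10% of nuclei. The highest ratios belonged to *Chrm2*, *Dpyd*, *Eya1*, *Lrmda*, *Nckap5*, *Slc7a11*, *Sntb1*, *Tcf7l2*, *Tmem163* and *Unc13c*. *Eya1*, *Lrmda*, *Slc7a11*, *Sntb1*, *Tcf7l2*, *Tmem163* and *Unc13c* reached that number of UMIs only through PZKO, where they were high. Their ranks and ratios are therefore a description and not support. Cluster 1 held most of the UMIs of *Chrm2*, *Eya1*, *Lrmda*, *Slc7a11*, *Tcf7l2* and *Unc13c*. *Slc7a11*, a cystine transporter, held 11 UMIs in PS19 and 167 in PZKO (3.21, 2.34 to 4.24; not called without the highest Scrublet scores, at 0.73, or without cluster 1, at 0.98), of which 86.5% over both libraries were in cluster 1, and *Unc13c*, a vesicle priming protein, held 28 and 209 (2.19), of which 89.9% were there. Outside cluster 1 the ratio of *Unc13c* was −0.12 (−1.39 to 1.21) and that of *Chrm2*, with 80.7% of its UMIs in the cluster, 0.59 (0.09 to 1.11). *Sntb1*, syntrophin, was instead a gene of the Vip-like cluster 5 and held 14 UMIs in PS19 and 112 in PZKO (2.29, 1.48 to 3.21), with a ratio of −0.14 in the *Lhx6* nuclei and 0.02 in the excitatory nuclei. *Tmem163*, a zinc transporter, also had most of its UMIs in cluster 5 (52.3%), at 18 and 135 UMIs (2.20, 1.48 to 2.99).

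The lowest ratios belonged to *Ttr*, *Meis2*, *Npy*, the noncoding RNA *Bc1* and 6 genes of the mitochondrial genome. *Ttr*, transthyretin, which the choroid plexus makes in large amounts, held 483 UMIs in PS19 and 105 in PZKO (−2.91, −3.23 to −2.60), and was detected in 95.04% and 46.6% of nuclei. It had ratios of −3.05 in the *Lhx6* nuclei, −3.04 in the excitatory nuclei and −3.21 in the oligodendrocyte-like nuclei. This ratio was thus alike in every kind of nucleus read. Of the other choroid genes, *Kl* was also called lower (−1.41), and *Folr1* and *Clic6* were under 20 UMIs. *Bc1*, a dendritic RNA of neurons, held 5130 and 3476 UMIs (−1.27, −1.33 to −1.21), with −1.36 and −1.03 in the *Lhx6* and excitatory nuclei. *Meis2* held 197 and 61 UMIs (−2.40, −2.84 to −1.98), of which 57.8% were in cluster 10, and without that cluster its ratio was −0.43 (−0.998 to 0.148). *Meis2* reached the minimum of 100 UMIs only through PS19, where it was high, so its rank is a description and not support.

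RNA of other cell types was present at low levels and differed between the libraries. The summed list stood in PS19 and PZKO at 4.03 and 5.19 UMIs per 10000 for oligodendrocytes (6 genes), against 181 and 169 in the oligodendrocyte-like nuclei. It stood at 3.13 and 4.39 for astrocytes (6 genes, led by *Slc1a2*), at 0.779 and 1.51 for oligodendrocyte precursors (4 genes, led by *Vcan*), and at 0.819 and 0.628 for microglia (6 genes). It was 3.798 and 4.37 for excitatory neurons (8 genes, led by *Camk2a*) and 1.80 and 0.257 for the choroid plexus (4 genes, led by *Ttr*). No gene of these 6 lists was at 0 in the *Adarb2* nuclei of either library. Of the measured genes, 2 of 6 oligodendrocyte, 2 of 6 astrocyte, 3 of 4 precursor and 3 of 6 excitatory genes were called higher in PZKO, 2 of 2 choroid genes lower and 1 of 6 microglial genes lower, beside 3.85% of all genes called higher and 4.42% called lower. The vascular list (5 genes) stood at 0.0862 and 0.127 UMIs per 10000 with *Cldn5* at 0 in PS19. Its 1 measured gene, *Dcn*, was called higher at 1 and 35 UMIs (4.42, 1.85 to 9.76). *Dcn* reached the minimum for a measured gene only through PZKO, where it was high, so its call is a description and not support. The directions of the lists did not hold throughout. The median of the oligodendrocyte list was 0.43 but −0.51 without the highest Scrublet scores. That of the astrocyte list was 0.26 but −0.43 without cluster 1. The part of this RNA in the ratios above was not tested.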

How the data were processed

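Nuclear RNA from pooled hippocampi gave 1 library per genotype. The authors counted UMIs per gene and barcode with Cell Ranger (7.0.1 per the labels, 8.0.1 in the matrix headers) on mm10, and deposited these raw counts, before the SoupX, nucleus filter and DoubletFinder steps of their methods. Whether intronic reads were counted is not given in the sources used here. The labels call the hippocampi pooled yet processed separately by animal, and the counts hold no animal label.

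Nuclei were grouped by genotype from the labels and chosen by the rule in the text, with doublets kept. The members and gene lists were chosen with earlier results of these data known. Excitatory nuclei held at least 5 *Slc17a7* and *Slc17a6* UMIs, at least 3 per 10000 and no fewer than *Gad1* and *Gad2*, *Lhx6* nuclei at least 2 *Lhx6* UMIs, and oligodendrocyte-like nuclei at least 50 UMIs of myelin genes per 10000. Members were clustered with scanpy 1.11.5 (1000 variable genes, 15 principal components, 15 neighbours, igraph 0.11.9 Leiden at resolution 1). Counts were summed per library and divided by the total. Shares have exact Clopper-Pearson, levels exact Poisson and log2 ratios exact conditional binomial intervals (scipy 1.17.1). Gene lengths came from GENCODE M21. Named genes are the 10 highest and 10 lowest ratios among genes with at least 100 UMIs found in at least 10% of nuclei, ranked by the interval end nearest 0, the members of the lists of origin, kinds, peptides, editing and necroptosis, and in other lists the extremes and the genes called. Genes named for clusters lead them by fold. The values of some single genes are not reported here, while list medians and counts include them.

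Alternatives were edgeR 4.0.16 TMM and DESeq2 1.42.0 scaling, means over nuclei, other minima, Scrublet, thinning to 3000 UMIs, and, chosen after seeing the data, leaving out cluster 1 or 10, equal weights of the classes, other Leiden resolutions (0.5 and 1.5) and a lower *Cck* minimum. The ratios and their intervals were also computed on simulated Poisson counts with known folds. Those counts hold no spread between nuclei or animals, so they cannot show how the intervals behave under it.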

Additional observations from a re-analysis of the deposited data

Results flagged for a closer look

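Outside the limits on UMIs and mitochondrial share, and so in none of the comparisons, 5 PS19 barcodes met the GABAergic and *Adarb2* parts of the rule, which is above the limit of 3 counts that a count of 0 allows. These barcodes were not analysed further.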

How the results depend on the processing

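Of 28 counts of genes called, 24 stayed within 1.5 times the value reported. Of 856 settings of named genes, 789 kept the call, 61 were no longer past the threshold and 6 turned to the other side of 0. A kept call does not mean a kept size, since the ratio of *Chrm2* ran from 0.59 to 2.68 and that of *Cst3* from −2.63 to −0.81. Thinned to 3000 UMIs, the rule kept 30 PS19 and 29 PZKO nuclei (50.8% and 60.4% of GABAergic nuclei, 0.368% and 0.334% of passing barcodes), of which 6.67% and 10.3% were of the Vip kind and, in PZKO, 0% of the Lamp5 kind, and 75 genes were higher and 80 lower of the 1674 measured. In the thinned counts the median of the general GABAergic genes turned to 0.045, *Cnr1* to 0.10 and *Sv2c* to −0.021, and the medians were 0.31 for synaptic adhesion, 0.75 for the editing genes, −0.37 for the tau and prion list and −1.26 for the mitochondrial genome. With at least 5000 UMIs, 2.31% and 2.28% of passing barcodes were *Adarb2* nuclei. At most 1% mitochondrial UMIs left 0.909% of PS19 nuclei in the Lamp5 kind, moved the mitochondrial median to −0.10 by construction and *mt-Co1* to 0.022 and *mt-Co2* to 0.00046. Doubled minima left 0% and 0% in the Lamp5 kind. A *Cck* minimum of 2 UMIs alone gave 14.2% and 16.0% in the Cck kind. At resolution 0.5, 22.7% and 32.5% of nuclei were Vip-like and 7.80% of PS19 nuclei Cck-like. With at least 100 UMIs per gene, 242 genes were higher and 278 lower, because fewer genes (8224) were measured, and other forebrain GABAergic genes had a median of −1.13. With at least 1 UMI the medial median was −0.17. Without cluster 1 it was −0.54, the astrocyte median −0.43, *Sox6* −0.98 and *Unc13c* −0.12, and 386 genes were higher and 574 lower. The oligodendrocyte median was 0.059 with *Adarb2* at 10 per 10000, −0.51 without the highest Scrublet scores (15 and 27 nuclei removed) and 0.93 without cluster 10. Means over nuclei gave 0.081 for nuclear noncoding RNAs and −0.86 for the mitochondrial genome, and an *Adarb2* minimum of 10 gave 0.077 and −0.85. Where no construction is named, the cause was not tested. No paired analysis was possible because each genotype has 1 library, and for the same reason none could be left out. Equal weights of the 4 single-nucleus kinds were not run, since the Cck kind held 0 nuclei.

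Pools of several mice in 1 library per genotype leave animal, library and genotype inseparable. *Zbp1*, necroptosis and interferon genes, and most peptide genes, held too few UMIs to resolve small differences.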
